A study of Homo sapiens with 32 samples.

Results

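The cytosolic heat shock chaperone genes were taken as the protein-coding genes of the GENCODE 44 annotation on chromosomes 1 to 22 and X whose symbols begin with HSPA, HSPB, HSPH, HSP90, DNAJA or DNAJB, leaving out the mitochondrial HSPA9. The rule found 43 of 19970 protein-coding genes and used no measured value. By role they were 11 HSP70 genes, 3 HSP110 genes, 3 HSP90 genes, 4 DNAJA and 12 DNAJB genes for J-domain proteins, 7 small heat shock protein genes and 3 others. The name cytosolic did not hold for every member. HSPA5, HSPA13, HSP90B1, DNAJB9 and DNAJB11 encode proteins of the endoplasmic reticulum (ER), and DNAJA3 encodes a mitochondrial J-domain protein. HSPBP1 and HSPBAP1, which encode a nucleotide exchange factor of HSP70 and a partner of the small heat shock protein HSPB1, entered through their symbols. HSPB2-C11orf52 is a readthrough of HSPB2 whose 5′ end lies 2 bp from that of HSPB2, so the 43 members had 42 distinct 5′ ends when this pair was counted once.

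HSP70 proteins bind unfolded stretches of client proteins in a cycle driven by ATP. J-domain proteins bring clients to HSP70 and stimulate its ATPase, HSP110 proteins exchange its nucleotide, HSP90 acts on later folding steps, and small heat shock proteins hold unfolding clients without ATP. Many of these genes are induced by heat through heat shock factor 1, which binds alternating copies of the short unit GAA and its complement TTC, while the ER chaperones are induced through the ER stress element.

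The samples were HEK293T cells, an established human embryonic kidney line, of the clone ZD29, in which ZNF143 carries an inducible dTAG degron, a domain that lets a small molecule direct the protein to degradation. All 10 groups shared this genotype, and no other clone was used, so what is particular to the clone cannot be told apart. Chromatin immunoprecipitation with sequencing (ChIP-seq) was done on untreated cells and on cells exposed for 30 minutes to dTAGV-1 at 50 nM. The antibodies were against the HA tag on ZNF143 (2 untreated and 2 treated samples) and against SP1, NRF1 and YY1 (4 and 4 samples each), and a mock precipitation had 2 and 2. ZNF143 is a zinc finger activator of promoters, SP1 binds GC boxes, NRF1 is here the activator of genes for respiration and other housekeeping functions, and YY1 is a zinc finger protein often found just downstream of start sites.

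The values were 4 deposited lists of peak summits, 1 per antibody, with 16165 ZNF143, 126181 SP1, 39180 NRF1 and 106578 YY1 summits on chromosomes 1 to 22 and X of the hg38 build. Each summit is a position with a score, a significance written as −log10, and the lowest score was just above 2.00 in every list. No list holds a value per sample or treatment, so no replicate error can be given and the treated and untreated cells were not compared. Scores grow with read depth, which the lists do not give, and were compared only within a list. A gene's rank is the position of its highest summit among all protein-coding genes with a summit of that list, given as a top percentage. The counts below are descriptions without a test.

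The heat shock motif recurred in the members' promoters, and its copies with 3 units are shown with 8 bases to either side. Capitals mark 3 alternating units of GAA and TTC with 2 bases between units. All sequences are 5′ to 3′ on the strand given and come from hg38.
DNAJA1 (chr9:33025268-33025296, plus strand): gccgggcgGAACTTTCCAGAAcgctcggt
DNAJB6 (chr7:157336865-157336893, plus strand): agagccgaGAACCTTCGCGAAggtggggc
HSP90AA1 (chr14:102087112-102087140, minus strand): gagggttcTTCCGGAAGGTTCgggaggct
HSPA6 (chr1:161524458-161524486, plus strand): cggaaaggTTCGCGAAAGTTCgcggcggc
HSPA8 (chr11:123062346-123062374, minus strand): gcgagcttGAAAGTTCCAGAAcgctgcgg
HSPA8 (chr11:123062171-123062199, minus strand): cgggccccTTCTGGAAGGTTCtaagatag
HSPH1 (chr13:31161943-31161971, minus strand): gccgcagaTTCTGGAAAGTTCtgatcagt
The 2 HSPA8 copies lay at −230 to −218 and at −55 to −43, in bp from the start of its canonical transcript, the representative transcript that Ensembl chooses per gene (negative upstream). In the other 5 genes the copy lay between 131 bp upstream and 15 bp downstream of that start.

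The ER stress element, CCAAT followed after 9 bases by CCACG, was found at the canonical starts of HSP90B1 and HSPA5. Each copy is shown on the strand that carries it, with 5 bases to either side and the whole element in capitals.
HSP90B1 (chr12:103930211-103930239, plus strand): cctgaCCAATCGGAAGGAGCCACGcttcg
HSP90B1 (chr12:103930316-103930344, minus strand): acccaCCAATCGCGCCGCACCACGcaccc
HSPA5 (chr9:125241386-125241414, minus strand): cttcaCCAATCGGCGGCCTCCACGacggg
The HSP90B1 copies lay from 194 to 176 bp and from 89 to 71 bp upstream of the start, on opposite strands, and the HSPA5 copy from 66 to 48 bp upstream.

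HSPA1A and HSPA1B encode the classical heat-inducible HSP70 and have similar promoters, shown here for the 120 bases before each start. Capitals mark, in order, a heat shock pair (GAANNTTC), a CCAAT box on the other strand and a TATA box.
HSPA1A (chr6:31815423-31815542, plus strand): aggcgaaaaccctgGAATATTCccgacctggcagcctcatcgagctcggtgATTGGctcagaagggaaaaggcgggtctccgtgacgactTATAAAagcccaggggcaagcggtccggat
HSPA1B (chr6:31827618-31827737, plus strand): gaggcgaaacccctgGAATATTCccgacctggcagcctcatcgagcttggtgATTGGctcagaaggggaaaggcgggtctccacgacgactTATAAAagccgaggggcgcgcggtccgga
From 250 bp before to 50 bp after the start the 2 promoters were 92.0% identical, with 22 mismatches and 2 gapped positions. Over 500 bp to either side, where summits were counted, they were 85.7% identical, with 106 mismatches and 40 gapped positions. In the lists the 2 genes differed by a weak SP1 summit at HSPA1B, as described with the HSP70 genes.

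At 6 of the members the highest ZNF143 summit within 500 bp of the outermost annotated 5′ end of the gene had the hexamer ACTACA within 60 bp, a part of the known ZNF143 motif that precedes CCCA. These sites are shown as 30 bases, with ACTACA and any copy of CCCANNATG, the core of the ZNF143 motif, in capitals. A HSPH1 site with the core alone is included, and for DNAJA3 only the site nearest the summit.
DNAJA3 (chr16:4425551-4425580, minus strand): cgagACTACAagtcccagcatacaacgcgg
DNAJB13 (chr11:73950953-73950982, plus strand): tgggACTACAactcccagagtgcacctgtg
DNAJB5 (chr9:34989175-34989204, plus strand): agggACTACAcctcccagagtgcactgttc
HSP90B1 (chr12:103929794-103929823, minus strand): agaaACTACAgctcccggcatgcaacgtcc
HSPA13 (chr21:14383190-14383219, minus strand): gcggACTACAtttcccagggggctgcggga
HSPH1 (chr13:31162389-31162418, minus strand): caggACTACAcatCCCAGCATGcaaggcgc
HSPH1 (chr13:31162349-31162378, minus strand): cagcgggactacgattCCCAACATGctctc
The HSPH1 sites lay 20 and 27 bp from its summit, that of DNAJA3 2 bp and that of DNAJB13 11 bp. The sites of HSP90B1, HSPA13 and DNAJB5 lay 20, 30 and 52 bp away. This hexamer was chosen after the sequences were seen. The limit of 60 bp is wider than the 50 bp used below for the other motifs near summits, and the DNAJB5 site lies beyond 50 bp. Within 60 bp the hexamer was present at 6 of the 15 members with a ZNF143 summit (40.0%) and at 13.0% of the 6323 genes with such a summit. The median score of the 6 was 7009 and that of the other 9 was 132, beside 5768 and 16.7 over all genes.

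Presence was first counted at the 5′ end of the gene record, its outermost annotated base. Within 500 bp of it, 15 members had a ZNF143 summit (34.9%, against 31.7% of all protein-coding genes). SP1 was present at 24 (55.8%, against 59.1%), NRF1 at 22 (51.2%, against 48.3%) and YY1 at 24 (55.8%, against 57.8%). Summits of all 4 lists were present at 11 members (25.6%, against 28.1%) and of none at 15 (34.9%, against 37.3%). Each of these shares lay within a few genes of the share over all genes.

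The outermost 5′ end was not always that of the main transcript. In 13 members (30.2%) it lay over 500 bp from the 5′ end of the Ensembl canonical transcript, against 21.6% of all protein-coding genes. The distance was 107685 bp in HSPA12A, 52655 bp in HSP90AA1, 41994 bp in DNAJB1, 25764 bp in DNAJB4 and 501 to 7376 bp in HSPA2, HSPA4L, HSPA8, HSPB6, HSPB7, HSPB8, HSP90AB1, DNAJB6 and DNAJB11. At the canonical 5′ end, 18 members had a ZNF143 summit (41.9%, against 34.8% of all genes), 29 an SP1 summit (67.4%, against 64.5%), 25 an NRF1 summit (58.1%, against 52.8%) and 27 a YY1 summit (62.8%, against 63.1%). All 4 lists were present at 16 members (37.2%, against 31.6%) and none at 11 (25.6%, against 33.2%). DNAJB1, DNAJB6, HSPA2 and HSPB8 had no summit at the gene record and at least 1 at the canonical 5′ end.

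**Figure D1:**
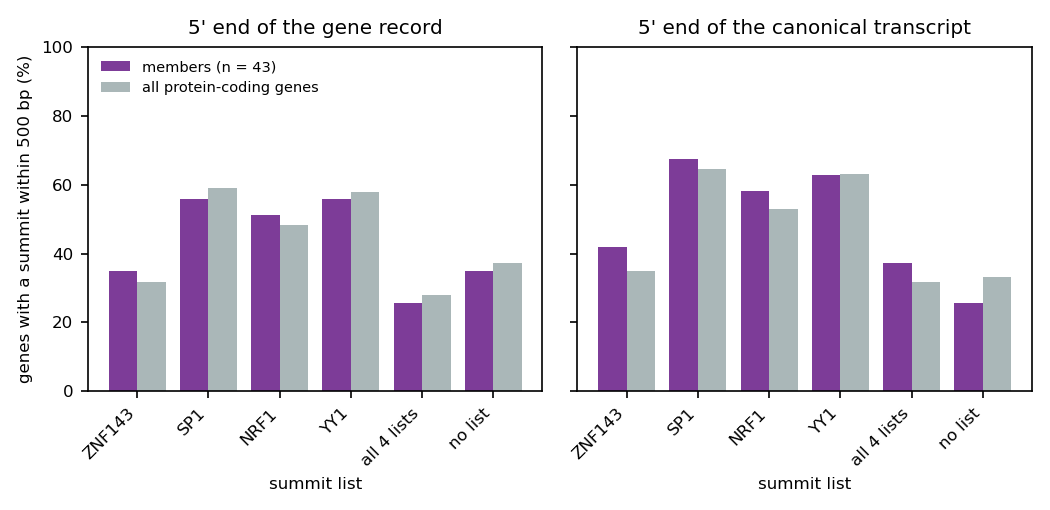
Share of genes with a summit within 500 bp of the 5′ end (y axis, %), for each of the 4 lists, all 4 together and none (x axis), for the 43 members and for all 19970 protein-coding genes. With the gene record on the left and the canonical transcript on the right, the members' ZNF143 share was 34.9% and 41.9%.

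At 5 members the highest summit of each list present at the gene record lay nearest to the canonical start of another protein-coding gene. DNAJB4 shared its outermost 5′ end with FUBP1, whose start lay on the other strand at −103, and its YY1 summit of score 2231 lay 10 bp downstream of the FUBP1 start. The HSP90AA1 record began 198 bp from WDR20, and its YY1 summit of score 1361 lay 97 bp downstream of the WDR20 start. The HSPB6 record began 97 bp from PROSER3, with its ZNF143 summit 298 bp downstream of the PROSER3 start. The DNAJB11 record began 64 bp from TBCCD1, and the NRF1 summit of score 6177 there lay 40 bp upstream of the TBCCD1 start. The NRF1 summit of score 3388 at the HSPA12A record lay 298 bp downstream of the ENO4 start. At DNAJB9 and HSPA14 only some of the summits lay nearest to another protein-coding gene, THAP5 and CDNF, and these stay counted at the canonical 5′ end. Starts of long noncoding RNA genes were left out of this comparison, and some lay nearer to a summit than the member's canonical start. On the other strand, such genes started at −373 at HSPA2 (SP1 summit at −375) and at −385 at DNAJB4 (SP1 at −367). Others started at −460 at HSPA8 (ZNF143 at −481) and at −320 at HSPA5 (SP1 at −202). These summits too stay counted. Which gene such a summit acts on was not tested. The values by role below are therefore those at the canonical 5′ end unless the gene record is named.

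A few summits lay close to the 500 bp limit at the canonical 5′ end. Just inside were the ZNF143 summits of HSPH1 at −485 and HSPA8 at −481. Just outside were the ZNF143 summits of DNAJB5 at −509, with a score of 1802, and of HSP90AA1 at −554, with a score of 108. HSP90B1 had its ZNF143 summit of score 10247 at −616 from the canonical 5′ end and −313 from that of the gene record.

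**Figure D2:**
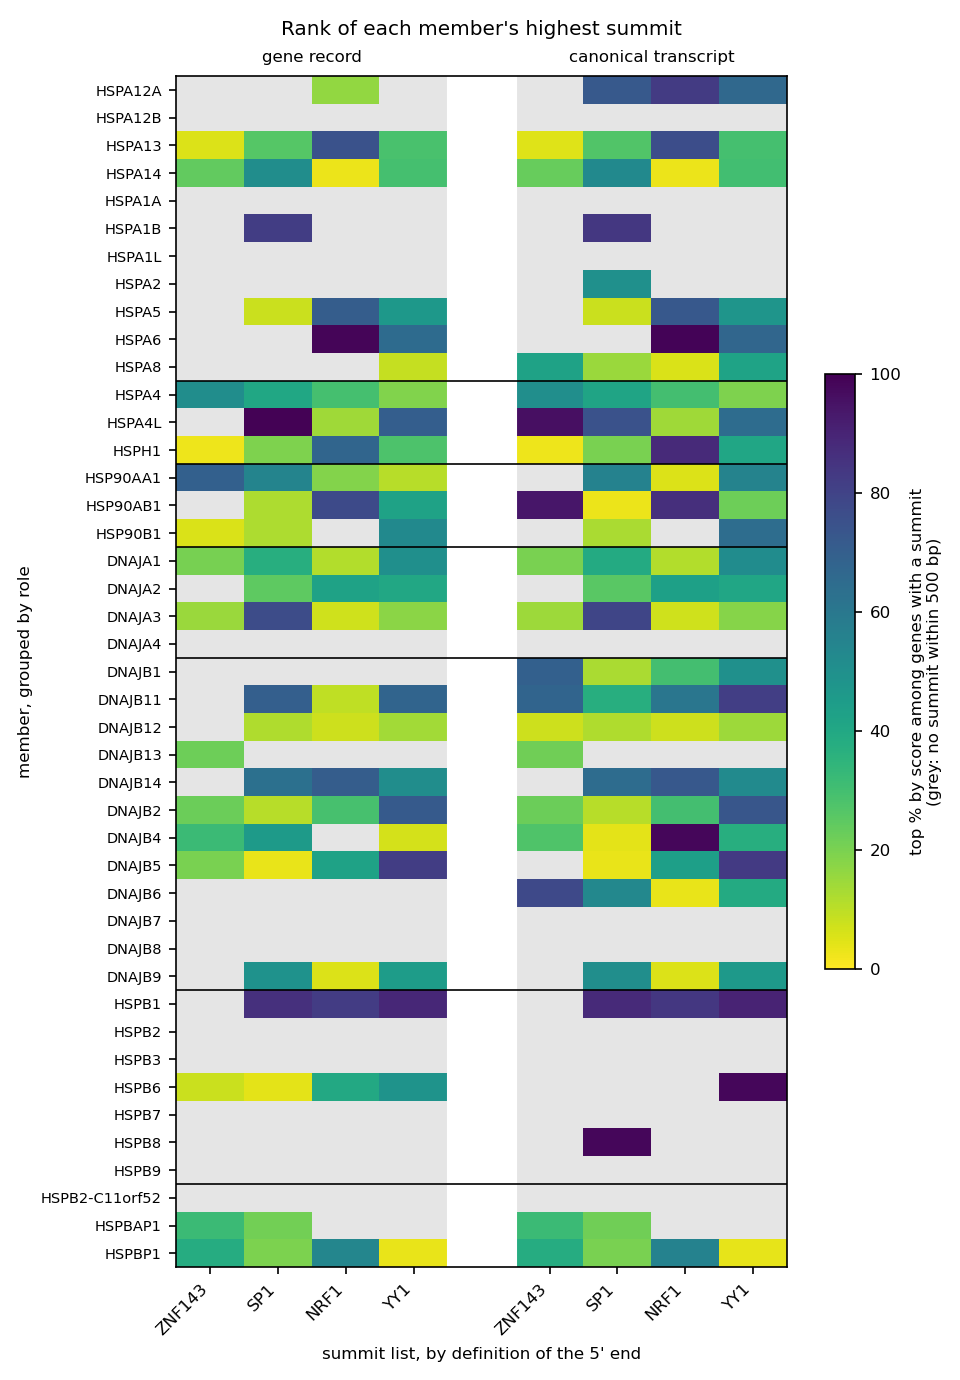
Rank of the highest summit within 500 bp of the 5′ end (colour, top % among genes with a summit of that list) for each of the 43 members (y axis, grouped by role) and each list (x axis), at the gene record and at the canonical transcript, with grey for no summit. HSPH1 and HSPA13 were near the top for ZNF143 at both ends, while HSPA1A, HSPA1L, DNAJA4 and DNAJB7 were grey throughout.

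Of the 11 HSP70 genes, 3 had summits of all 4 lists and 3 had none. HSPA1A and its testis-expressed neighbour HSPA1L, which starts on the opposite strand at −260, had no summit of any list. The nearest SP1 summit to HSPA1A lay at −8774, 197 bp downstream of the start of LSM2. HSPA1B had an SP1 summit at −89 with a score of 43.9 (top 83.8%), 12 bp from the centre of its heat shock pair, and no other summit. HSPA6, a strictly stress-induced HSP70, had a YY1 summit at −171 with a score of 77.8 and NRF1 summits of at most 2.48, and its nearest SP1 summit at −613 fell outside the limit.

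HSPA8, the constitutive cytosolic HSP70, had summits of all 4 lists. Its NRF1 summit at −341 had a score of 8271 (top 5.84%), its SP1 summit at −160 a score of 661 (top 15.2%) and its YY1 summit at 45 a score of 194. The ZNF143 summit at −481 was weaker, at 36.6 (top 42.5%). The SP1 summit lay between the 2 heat shock triples shown above.

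HSPA14, a ribosome-associated HSP70, had its NRF1 summit at −148 with a score of 11360 (top 2.75%), the highest NRF1 value among the members. CDNF starts on the other strand at −269, MSANTD7 starts at the same base as HSPA14, and the NRF1 summit lay at −121 from the CDNF start. The ZNF143 summit of HSPA14 at 4 had a score of 964. HSPA13, a microsomal HSP70, had ZNF143 at −99 with a score of 10846 (top 4.97%), and its 4 summits fell within 80 bp. HSPA5, the ER HSP70 also called BiP, had no ZNF143 summit, and the nearest lay at −20421, at GAPVD1. Its SP1 summit at −202 had a score of 1040 (top 7.86%), with YY1 at −422 scoring 155 and NRF1 at 202 scoring 14.5.

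HSPA2, which is needed in spermatogenesis, had an SP1 summit alone, at −375 with a score of 207. HSPA12A, a distant HSP70 relative, had SP1, NRF1 and YY1 summits of 91.2, 8.77 and 79.1, each in the lower ranks. HSPA12B had none, and its nearest summit was a YY1 summit 4837 bp downstream.

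The 3 HSP110 genes had summits of all 4 lists. HSPH1, a heat-inducible exchange factor, had the highest ZNF143 score of any member, 15992 (top 2.44%), at −485 from the canonical 5′ end and −1 from that of the gene record. Its SP1 summit of 537 lay at −312 and its YY1 summit of 203 at −16. HSPA4 had a weak ZNF143 summit of 21.8 at −165 and a YY1 summit of 630 at 159. HSPA4L, a relative found mainly in testis, had NRF1 at −41 with a score of 4168 (top 14.2%) and a ZNF143 summit of 3.02, close to the lowest value of the list.

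The 3 HSP90 genes had SP1 and YY1 summits. HSP90AB1, the constitutive cytosolic form, had the highest SP1 score among the members, 1963 at −57 (top 2.76%), and a ZNF143 summit of only 3.35. HSP90AA1, the inducible form, had an NRF1 summit of 8820 at −205 (top 5.12%), SP1 of 173 at −41 and no ZNF143 summit within the limit. Thus the 2 cytosolic forms held their highest ranks in different lists. HSP90B1, the ER form, had SP1 at −146 with a score of 776 (top 12.5%) and no NRF1 summit.

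Of the 4 DNAJA genes, DNAJA1 and DNAJA3 had summits of all 4 lists. DNAJA1, a heat-inducible partner of HSP70, had ZNF143 at −154 with a score of 1698 (top 20.2%) and NRF1 at 446 with a score of 5234 (top 11.7%). DNAJA3, the mitochondrial member, had NRF1 at −70 with a score of 7368 (top 7.28%), ZNF143 at −290 with a score of 3770 (top 14.8%) and YY1 at 67 with a score of 711. DNAJA2 lacked ZNF143 within the limit, with a summit of 2.11 at 564, and had SP1 at −53 with a score of 439. DNAJA4 had no summit of any list, and its nearest was an SP1 summit at −18828.

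Of the 12 DNAJB genes, 6 had summits of all 4 lists and 2 had none. DNAJB12, a J-domain protein anchored in the ER membrane, ranked in the top 15% for all 4 lists, with ZNF143 at 313 scoring 7708 (top 7.59%), NRF1 at 254 scoring 7237 (top 7.55%), SP1 at −61 scoring 792 (top 12.1%) and YY1 at 59 scoring 964 (top 14.6%). DNAJB6, which suppresses protein aggregation, had NRF1 at −58 with a score of 10637 (top 3.35%) and ZNF143 of 6.83. DNAJB1, the main heat-inducible J-domain protein of the cytosol, had SP1 at −76 with a score of 756 (top 12.8%) and ZNF143 of 9.09 at 101. That SP1 summit lay 2 bp from the centre of a heat shock pair and beside a GC box at −82 to −77.

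DNAJB2, a neuronal J-domain protein, had all 4 summits within 80 bp. Its best rank was that of SP1, at −29 with a score of 859 (top 10.8%), followed by ZNF143 at −48 with a score of 1244 (top 22.3%). DNAJB4 had SP1 at −367 with a score of 1570 (top 4.00%) and ZNF143 at −209 with a score of 315. DNAJB5 had SP1 at −165 with a score of 1796 (top 3.29%). DNAJB11, an ER cochaperone, had ZNF143 of 9.83 at −1 and SP1 of 302 at −195. DNAJB14 had SP1, NRF1 and YY1 summits of 126, 14.5 and 134. DNAJB9, an ER cochaperone whose start lay 168 bp from that of THAP5 on the other strand, had NRF1 at −199 with a score of 8813 (top 5.15%). That summit lay 31 bp downstream of the THAP5 start.

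DNAJB13, a component of sperm flagella, had a ZNF143 summit alone, at −53 with a score of 1344 (top 21.7%). Only 27 of all 19970 genes had ZNF143 as their sole list at the canonical 5′ end (0.135%). The sequence of this site is shown above. DNAJB7 and DNAJB8, which are expressed in testis, had no summit, and the 4 nearest to DNAJB7 lay 4723 to 5260 bp away, at XPNPEP3 and ST13.

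Of the 7 small heat shock protein genes, none had a ZNF143 summit at the canonical 5′ end and 4 had no summit of any list. HSPB1, the widely expressed heat-inducible form, had SP1 of 29.3 at −112 (top 88.1%), NRF1 of 8.33 at 95 (top 83.8%) and YY1 of 19.0 at 185 (top 89.9%). HSPB6 had a YY1 summit of 4.96 and HSPB8 an SP1 summit of 5.37. HSPB2, HSPB3, HSPB7 and HSPB9 had none. HSPB3 had a summit of score 2.84 in the SP1 list at 1719. The nearest to HSPB2 lay 6131 bp downstream, at the start of C11orf52. The nearest to HSPB7 lay at −8846, and those of HSPB9 lay at −1513 to −1411, at KAT2A. HSPB2 starts 964 bp from CRYAB, another small heat shock gene, on the other strand.

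Of the 3 remaining members, HSPBP1 had the highest YY1 score of the members, 3604 at 26 (top 3.69%), downstream of a copy of the YY1 motif AANATGGCG that spans −1 to 7, and its 4 summits fell within 89 bp. HSPBAP1 had ZNF143 at −373 with a score of 130 and SP1 at −329 with a score of 496. The readthrough HSPB2-C11orf52 had none, as HSPB2. The HSPBP1 motif is shown in capitals with 10 bases to either side.
HSPBP1 (chr19:55280093-55280121, minus strand): atttccggttAAGATGGCGgcgcccagca

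NRF1 motifs, GCGCANGCG, lying within 50 bp of an NRF1 summit and in the promoter window are shown in the same way for the 5 members that held them, with the copy nearest the gene's start where several lay there, as in DNAJA3 and DNAJB6.
DNAJA3 (chr16:4425789-4425817, minus strand): gcgcgtagagGCGCATGCGtcgcgcacgc
DNAJB6 (chr7:157336928-157336956, minus strand): ccctgacgccGCGCATGCGcagtttccac
DNAJB9 (chr7:108569658-108569686, minus strand): cagaatgctaGCGCAGGCGcaggggctcg
HSPA14 (chr10:14838147-14838175, minus strand): actgcacagtGCGCACGCGcaaccgggga
HSPA4L (chr4:127782264-127782292, plus strand): gcagccgagcGCGCAGGCGcaggtcccag
These 5 members had NRF1 scores of 4168 to 11360, all in the top 14.2%. In all, 8 of the 25 members with an NRF1 summit had the motif within 50 bp of it (32.0%), beside 2326 of all 10551 genes with one. GCGCANGCG lay near the NRF1 summits of DNAJA1, DNAJB12 and HSPA8 too, outside the promoter window. The other lists were counted in the same way. A GC box lay within 50 bp of the SP1 summit in 14 of 29 members (48.3%, against 44.9% of all genes with one). Near the ZNF143 summit, CCCANNATG was present in 1 of 18 (5.56%, against 5.19%) and ACTACAA in 2 (11.1%, against 6.38%). The YY1 motif was present near the YY1 summit in 1 of 27 (3.70%, against 6.74%). These shares were not tested.

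The members were also counted by gene sets, beside the shares of all genes at the canonical 5′ end (ZNF143 34.8%, SP1 64.5%, NRF1 52.8%, YY1 63.1% and none 33.2%). The heat shock response set held 10 members (HSPA1A, HSPA1B, HSPA6, HSPA8, HSPH1, HSP90AA1, HSP90AB1, DNAJA1, DNAJB1 and HSPB1), of which HSPA8 and HSP90AB1 are largely constitutive. It had ZNF143 at 5, SP1, NRF1 and YY1 at 8 each and no summit at HSPA1A. Without HSPA8 and HSP90AB1 the counts were 3 of 8 for ZNF143 and 6 of 8 for each of the others. The 5 members whose proteins reside in the ER had SP1 and YY1 at 5 each, NRF1 at 4 and ZNF143 at 2. With DNAJB12, whose protein is anchored in the ER membrane, the counts were SP1 and YY1 at 6 of 6, NRF1 at 5 and ZNF143 at 3. DNAJB14, another DNAJB member, had SP1, NRF1 and YY1 and no ZNF143 summit and was not added, so these counts depend on the choice of members. The testis or sperm set of 6 members (HSPA1L, HSPA2, DNAJB7, DNAJB8, DNAJB13 and HSPB9) had ZNF143 and SP1 at 1 each, neither NRF1 nor YY1, and 4 members without a summit. With HSPA4L, which has all 4 lists, ZNF143 and SP1 were present at 2 of 7 and NRF1 and YY1 at 1. Of the 4 members known from muscle (HSPB2, HSPB3, HSPB6 and HSPB7), 3 had no summit. The 3 changed sets were chosen after the values were seen, and no set was tested. No measure of expression was used, so whether the members without summits were transcribed in these cells was not tested.

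The members' ZNF143 summits ranked high within the list at the gene record. Their scores ran from 9.09 to 15992 with a median of 1344, against a median of 23.6 over the 6323 genes with a summit, and 13 of 15 were in the top 50%. At the canonical 5′ end the scores ran from 3.02 to 15992 with a median of 222, against 23.2, and 12 of 18 were in the top 50%. The medians at the canonical 5′ end for SP1 were 302 in members and 207 in all genes, for NRF1 86.6 and 51.3, and for YY1 155 and 144.

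The position of the summits differed among the lists. SP1 summits lay upstream of the canonical 5′ end in 28 of 29 members (96.6%), against 78.7% of all genes with one, at a median of −138 against −73.0. HSPA4L, with its SP1 summit at 108, was the exception. ZNF143 summits were upstream in 13 of 18 members (72.2%, against 69.8%) with a median of −59.0 in both, and NRF1 summits in 16 of 25 (64.0%, against 72.8%). YY1 summits were downstream in 16 of 27, with a median of 26.0 against 30.0. At the gene record 14 of 24 SP1 summits were upstream (58.3%, against 63.2%).

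**Figure D3:**
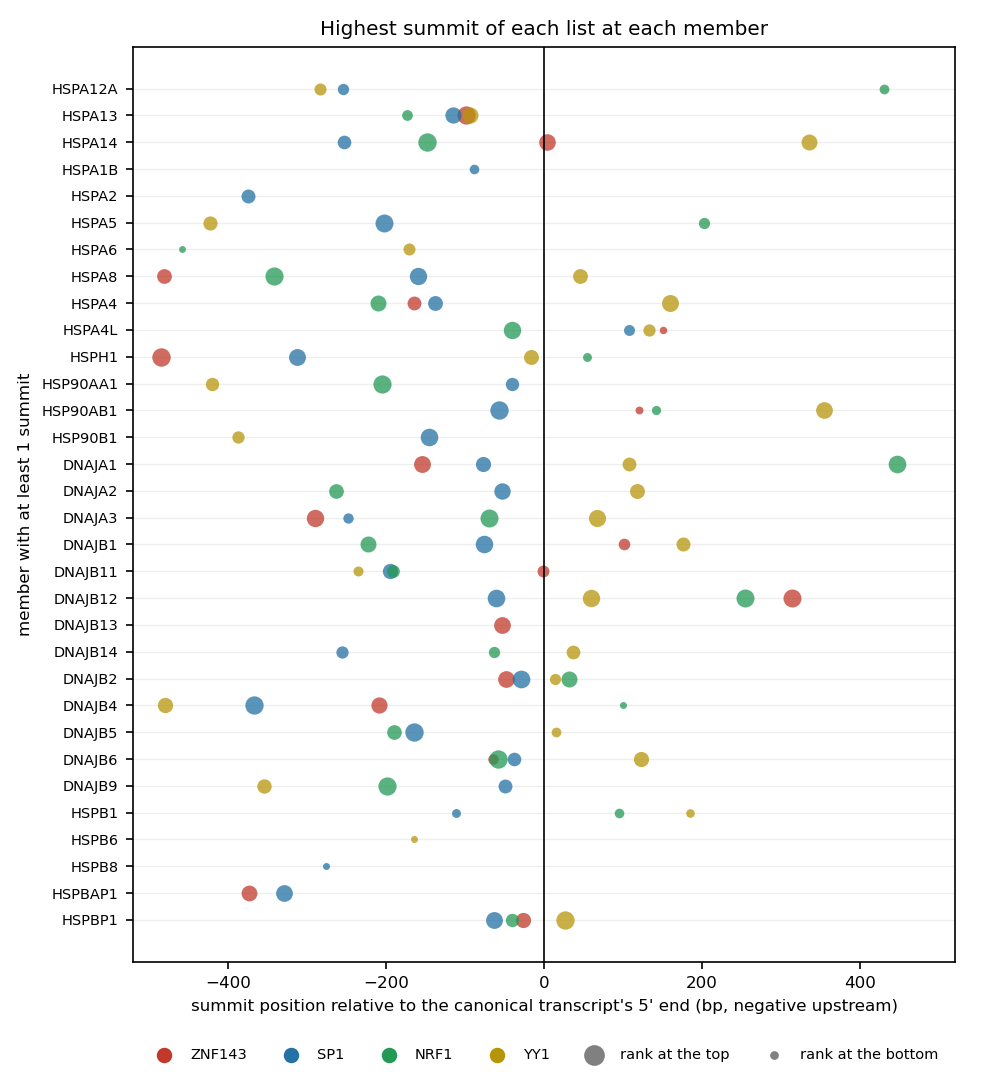
Position of the highest summit of each list (colour) within 500 bp of the canonical transcript's 5′ end (x axis, bp, negative upstream) for the 32 members with at least 1 summit (y axis), with larger points for higher ranks. SP1 points lie left of the start in 28 of 29 members.

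In the 16 members with all 4 lists, the 4 highest summits spanned 80 to 600 bp with a median of 372 bp, against 221 bp in the 6309 such genes. They fell within 100 bp in 3 members, DNAJB2, HSPA13 and HSPBP1 (18.8%, against 19.5%). At the gene record, an SP1 summit lay within 100 bp of the ZNF143 summit in 8 of 15 members (53.3%, against 67.4%), an NRF1 summit in 5 (33.3%, against 46.8%) and a YY1 summit in 8 (53.3%, against 66.0%). Each of these 3 shares was below that over all genes, and the differences were not tested.

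Motifs were searched on both strands with no mismatch from 250 bp before to 50 bp after the canonical 5′ end. A heat shock pair, GAANNTTC or TTCNNGAA, was found in 19 members (44.2%), against 11.0% of all protein-coding genes, and 9 of the 10 members of the heat shock response set had one, all but HSP90AB1. The 8 members of that set other than HSPA8 and HSP90AB1 each had a pair. HSPA1A and HSPA1L share their pair, since the site at chr6:31815437-31815444 lies in the windows of both genes and was counted for each. The triple, which contains pairs, was found in 6 members (14.0%), against 0.366%. At the gene record the pair was found in 9 members (20.9%, against 12.2%) and the triple in 2 (4.65%, against 0.401%), namely DNAJA1 and HSPA6. The counts were thus higher at the canonical 5′ end. The ER stress element was found in 2 members (4.65%, against 0.105%) at the canonical 5′ end and in 1, HSPA5 (2.33%, against 0.0901%), at the gene record. It contains a CCAAT box.

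**Figure D4:**
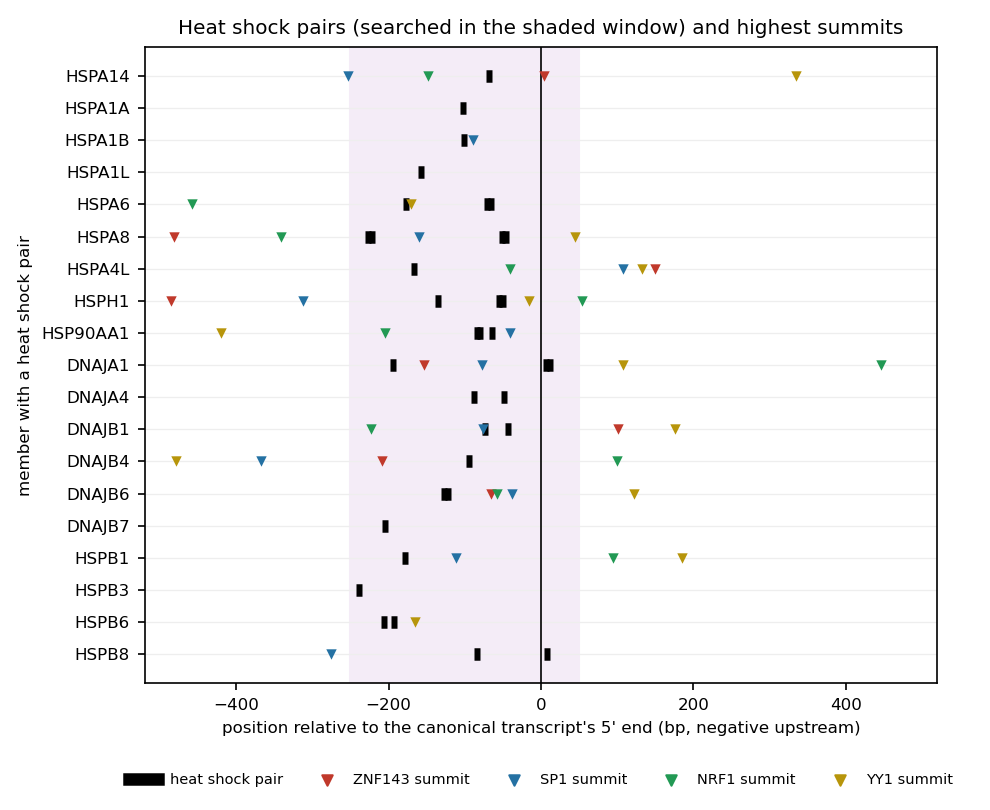
Heat shock pairs (black bars, searched in the shaded window) and the highest summit of each list (triangles) relative to the canonical transcript's 5′ end (x axis, bp, negative upstream) in the 19 members with a pair (y axis). Pairs of HSPA1B and DNAJB1 lie 12 and 2 bp from an SP1 summit, while HSPA1A, HSPA1L, DNAJA4, DNAJB7 and HSPB3 hold pairs and no summit. The DNAJB1 summit also adjoins a GC box, which is not drawn.

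In the 14 members with both a pair and a summit, the nearest summit of any list lay 2 to 191 bp from the centre of a pair, with a median of 37.0 bp, and within 100 bp in 12 of them. DNAJB4, at 114 bp, and HSPB8, at 191 bp, were the exceptions. The nearest summit was of SP1 in DNAJB1 (2 bp), HSPA1B (12 bp), HSP90AA1 (23 bp), HSPA8 (61 bp) and HSPB8. It was of YY1 in HSPA6 (5 bp), HSPB1 (25 bp), HSPB6 (27 bp), HSPH1 (34 bp) and HSPA4L (66 bp). In DNAJA1 (40 bp), DNAJB6 (57 bp), HSPA14 (72 bp) and DNAJB4 it was of ZNF143. The SP1 summit of HSP90AA1 at −41 also lay inside a GC box at −45 to −40. The ZNF143 summit of HSPH1 lay 349 bp from its nearest pair. The pairs in HSPA1A, HSPA1L, DNAJA4, DNAJB7 and HSPB3 had no summit of the 4 lists within 500 bp of the start. These distances were not computed over all genes. Pairs were sought only from 250 bp before to 50 bp after the start, and summits within 500 bp of it. The values therefore cannot show whether summits lie closer to pairs than to other promoter sequence.

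For the motifs of the 4 factors, a GC box, GGGCGG, was present in 34 members (79.1%), against 61.3% of all genes. The NRF1 motif was present in 8 (18.6%, against 11.0%), and the YY1 motif in HSPBP1 alone (2.33%, against 5.00%). CCCANNATG was present in DNAJB7 alone (2.33%, against 4.41%), which had no ZNF143 summit, and ACTACAA in DNAJB13 and HSPBAP1 (4.65%, against 2.99%). At the gene record, CCCANNATG was present in DNAJB7, HSPA13 and HSPH1 (6.98%, against 4.52%) and ACTACAA in DNAJA3, DNAJB13, HSPA12A and HSPBAP1 (9.30%, against 3.12%), so the core motif lay on the other side of the share over all genes there. A CCAAT box was present in 18 members (41.9%, against 36.0%), and a TATA box, TATAAA, in 7 (16.3%, against 9.73%), namely DNAJB2, HSPA1A, HSPA1B, HSPA1L, HSPB3, HSPB6 and HSPB7. The windows of HSPA1A and HSPA1L overlap, and their TATA box is the same site. Of these 7, only DNAJB2 had summits of more than 1 list.

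The ratio of observed to expected CpG in the same window had a median of 0.864 in the members and 0.776 in all genes. It was 0.449 in the 11 members without a summit and 0.938 in the 16 with all 4 lists, beside 0.290 and 0.889 in all genes of those kinds. Of the 11 members without a summit, 4 had ratios within the range of the members with all 4 lists (0.543 to 1.22), namely DNAJA4 with 1.03, HSPB9 with 0.901, HSPA12B with 0.756 and HSPA1A with 0.550. DNAJB13, with ZNF143 alone, had 0.170.

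**Figure D5:**
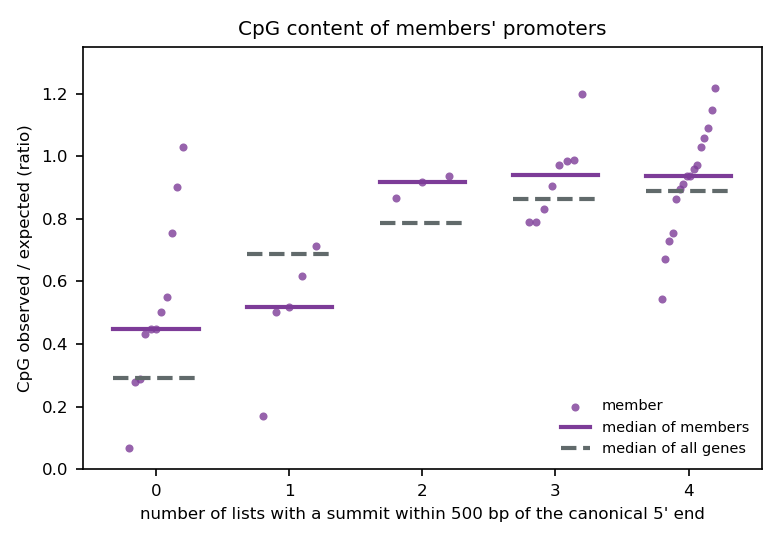
Ratio of observed to expected CpG from 250 bp before to 50 bp after the canonical 5′ end (y axis) by the number of lists with a summit there (x axis), with 1 point per member, the members' median (solid line) and that of all genes (dashed line). The members' medians run from 0.449 with no list to 0.938 with 4.

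Parts of some windows are not unique in the genome, which bears on where reads can be placed. Of the runs of 31 bases within 500 bp of the start, 32.3% of those of HSPA1A, 32.4% of those of HSPA1B, 5.56% of those of HSPA1L and 58.1% of those of HSPA6 recurred on the main chromosomes, and in every other canonical window 10.4% or less did. Most runs of HSPA1A (96.8%), HSPA1B (96.8%) and HSPA1L (100%) also stood on 4 other contigs of the build, and those of DNAJA3 (100%) on 1. The ZNF143 list, the only 1 of the 4 with other contigs, held a summit of score 3595 on the DNAJA3 copy, beside 3770 on the chromosome, and none on the HSPA1A, HSPA1B and HSPA1L copies. The part of these copies in the missing summits was not tested.

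Among 59 genes of the same pathways that are no members, the canonical 5′ end had ZNF143 in 36, SP1 in 52, NRF1 in 47, YY1 in 50, all 4 lists in 34 and none in 7. Over all protein-coding genes the shares were 34.8%, 64.5%, 52.8%, 63.1%, 31.6% and 33.2%, in the same order. HSPD1 and HSPE1 share their 4 summits, which were counted for both. These differences were not tested. HSP90 cochaperones had SP1, NRF1 and YY1 at 10 of 10 and ZNF143 at 6. AHSA1, which stimulates the HSP90 ATPase, had ZNF143 at −365 with a score of 26405 (top 0.791%), higher than in any member. STIP1, which joins HSP70 to HSP90, had an SP1 score of 3659 (top 0.691%) and no ZNF143 summit. The heat shock factors HSF1 and HSF2 had all 4 lists, and HSF4 and HSF5 none. The other 5 without a summit were the small heat shock genes CRYAA, CRYAB and ODF1 and the J-domain genes DNAJC15 and DNAJC5G.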

How the data were processed

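The authors deposited 4 summit lists, 1 each for ZNF143, SP1, NRF1 and YY1, and per the layout and values of the deposited lists, column 5 holds a −log10 significance. Whether it was a p or a q is not given in the sources used here. The submitters' processing notes name cutadapt, Bowtie2, SAMtools 1.16.1, MACS3, bedtools and hg38, with no role or order. Lists were matched to antibodies by the labels for ZNF143 and SP1 and by the names of the lists for NRF1 and YY1. Each list pools samples, and which samples or controls entered the calls is not given in the sources used here. Depth is unknown, so no precision from depth can be given. Signal tracks were not analysed here.

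Summits on chromosomes 1 to 22 and X were set against GENCODE 44 5′ ends with Python 3.11.15, NumPy 2.4.6 and pysam 0.24.0, and HSPA1A and HSPA1B were aligned with Biopython. For each gene and list the highest-scoring summit within 500 bp was taken, with offsets along the gene's strand. Motifs were searched in the hg38 sequence, and runs of 31 bases were counted over all its contigs. The search steps were tested on simulated data. Genes named with values were the 5 highest members of each list, members with no or with 1 to 3 lists, the main stress-induced and ER members, and members sharing a promoter; a few pathway genes were chosen after their values were seen. Every member was kept, with no filter on scores. No test was made: counts and medians stand beside those of all protein-coding genes. The members, gene lists and motifs were chosen with earlier results of these data known. Alternatives changed the distance, the 5′ end, the length of the lists, the choice of summit and the motif window.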

Additional observations from a re-analysis of the deposited data

How the results depend on the processing

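Within 250 bp of the gene record's 5′ end, all 4 lists were present at 5 members (11.6%, against 18.9% of all genes) in place of 11. With the 5′ ends of any protein-coding transcript, ZNF143 was present at 23 members (53.5%, against 37.6%) in place of 15 and all 4 lists at 21 (48.8%, against 34.9%), since more 5′ ends were searched per gene. The other counts of members with summits, under 250 and 1000 bp, the canonical 5′ end, any transcript, the top 50% of each list and equal list lengths of 16165, were within 1.5 times the value at the gene record. With the top 50% of the ZNF143 list, 14 members kept a summit (32.6%, against 19.3%). An alternative chosen after seeing the data, the canonical 5′ end with equal list lengths, gave ZNF143 at 18 members (41.9%, against 34.8% of all genes), SP1 at 22 (51.2%, against 36.6%), NRF1 at 21 (48.8%, against 44.7%), YY1 at 18 (41.9%, against 40.2%), all 4 lists at 9 (20.9%, against 20.6%) and none at 15 (34.9%, against 43.9%). Motif counts moved with the window and the 5′ end. From the gene record's promoter window to 500 bp either side, the heat shock pair went from 9 to 25 members, the triple from 2 to 5, the ER stress element from 1 to 2, CCCANNATG from 3 to 10, the NRF1 motif from 7 to 11, the CCAAT box from 14 to 31 and the TATA box from 6 to 13. From the gene record to the canonical 5′ end, the pair went from 9 to 19, the triple from 2 to 6, the ER stress element from 1 to 2, CCCANNATG from 3 to 1, ACTACAA from 4 to 2 and the YY1 motif from 2 to 1. With 50 bp in place of 100 bp, the members with an NRF1 summit near that of ZNF143 went from 5 to 2 and with a YY1 summit from 8 to 5. No paired analysis was possible because no list holds a value per sample or replicate. Depth per sample is unknown, so an absent summit cannot be told apart from one below the limit of the list.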
